A study of Mus musculus with 6 samples.

Results

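The mitochondrial carriers of the SLC25 family were examined in the inguinal fat pad, a subcutaneous white adipose depot, of mice aged 20 months. Members were the genes whose symbol starts with Slc25a, other than Slc25a1, and whose counts summed to at least 60 over the 6 libraries. This gave 39 of the 47 Slc25a rows in a table of 22695 rows. Of the other rows, 7 lay under the sum, the highest of them Slc25a18 with 55 counts, while the lowest member was Slc25a13 with 91. The study compared 3 wild-type samples (genotype C57BL/6J-WT) with 3 from mice lacking GSNOR (genotype C57BL/6J-GSNOR KO), with no treatment named. GSNOR is S-nitrosoglutathione reductase, encoded by Adh5, and the submitters asked what underlies the enhanced lipid metabolism they describe in old knockout mice. Total RNA came from frozen tissue and was enriched for messenger RNA with poly-T beads, and the labels used here do not describe the null allele, the sex of the mice or whether each sample is 1 animal. The p-values therefore measure the spread between these samples. Where 3 values are listed for a group, they follow the order of replicates 1, 2 and 3.

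Carriers of this family sit mostly in the inner mitochondrial membrane and move metabolites between the cytosol and the matrix. They exchange ADP for ATP, bring in phosphate, acylcarnitines, amino acids, coenzyme A and iron, and pass out the carbon that fat cells use to build fatty acids. Ucp1, the uncoupling protein of brown fat, belongs to the same family under another name.

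Libraries held 20277594 to 23961574 counts, and mitochondrially encoded transcripts took 28.8 to 37.8% of them. Adh5 was at 58.8 to 76.9 CPM (counts scaled to library size) in WT and at 3.81 to 5.08 CPM in GSNOR KO, on the side each label gives. The 10 adipocyte markers summed to 14484 to 16711 CPM in WT and 15143 to 16780 CPM in GSNOR KO. Skeletal muscle markers were also present and moved with genotype: all 15 of 18 listed that were measured had a log2 fold change below 0, 5 of them fell, and their median was -1.41. Their summed level was 40552, 15798 and 16884 CPM in WT against 10531, 6808 and 9852 CPM in the knockout. WT replicate 1 stood apart with the most muscle transcript. It also held the most macrophage marker transcript of all libraries, and the least from endothelial and from brown and beige markers. The macrophage markers summed to 592.9, 283.4 and 284.4 CPM in WT against 128.4 to 169.5 CPM in GSNOR KO, and 6 of 10 fell. The progenitor and fibroblast markers summed to 694.6 to 795.9 CPM and 462.8 to 528.8 CPM, and 5 of 10 fell. Lymphocyte and plasma cell markers summed to 28.7, 21.6 and 138.9 CPM in WT against 10.4, 12.1 and 17.1 CPM in the knockout, with WT replicate 3 apart from the rest, and 0 of 7 passed though all 7 had a fold change below 0. Endothelial markers summed to 1229, 2096 and 2245 CPM in WT against 2253 to 2754 CPM in GSNOR KO, and 0 of 8 passed the test. Over all 13694 tested genes 3.9% rose and 3.14% fell, the background for these marker counts. None of the markers on these lists was at 0 in every library. In such tissue, fewer cells of a type and less RNA per cell cannot be told apart.

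Most carriers did not pass the test between genotypes. Of 39 members 1 rose in GSNOR KO, the branched-chain amino acid carrier gene Slc25a44, and 1 fell, the ATP-Mg/phosphate carrier gene Slc25a24, while 37 did not pass. That is 5.13% of members, against 7.04% of the 13694 genes tested with edgeR's quasi-likelihood test at an adjusted p under 0.05, a share near the background. The rises were 2.56% of members against 3.9% of all genes, and the falls 2.56% against 3.14%. Over all genes 534 were higher and 430 lower, or 314 and 406 with library totals as the only scaling. Unadjusted, 15 members lay under 0.05 (38.5%, against 28.6% of all genes), 8 with a positive fold change (20.5%, against 12.9%) and 7 with a negative one (17.9%, against 15.7%). The 3 GSNOR KO libraries lay wholly on one side of the 3 WT libraries for 17 members (43.6%, against 36.7% of all genes). The median log2 fold change was 0.03 over the members and -0.04 over all tested genes. Signs were split, 21 above 0 (53.8%, against 45.5% of all genes) and 18 below, and 19 above and 20 below with library totals only.

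The count of called members changed with each library left out. WT replicate 1 was the library with the most muscle and macrophage and the least endothelial marker transcript. Without it 9 members were called, 6 higher (15.4%, against 11.8% of all genes) and 3 lower (7.69%, against 8.77%). With the 6 libraries and DESeq2 in place of edgeR 9 members were also called (23.1%, against 17.1% of all genes), and all 9 were the same genes. These were Slc25a5, Slc25a22, Slc25a39, Slc25a42, Slc25a44 and Slc25a48 with positive fold changes and Slc25a4, Slc25a12 and Slc25a24 with negative ones. Leaving out any of the other 5 libraries left 0 members called. Over all genes 915 (6.58%) were called without WT replicate 3, but only 3 to 13 without WT replicate 2 or any 1 knockout library, where a count of 0 members says nothing about the carriers. With the skeletal muscle score as a covariate 0 members and 154 genes in all (1.12%) were called. That score was 1.51, 0.18 and 0.26 in WT against -0.39, -1.07 and -0.49 in the knockout. Since it separates the genotypes, this fit cannot tell muscle transcript and genotype apart. With limma voom 1 member was called (2.56%, against 5.37% of all genes). Of the 39 members 0 in the authors' deposited table had an adjusted p under 0.05 (2.55% of its 13014 genes did), and the smallest was 0.0512, for Slc25a42.

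**Figure D1:**
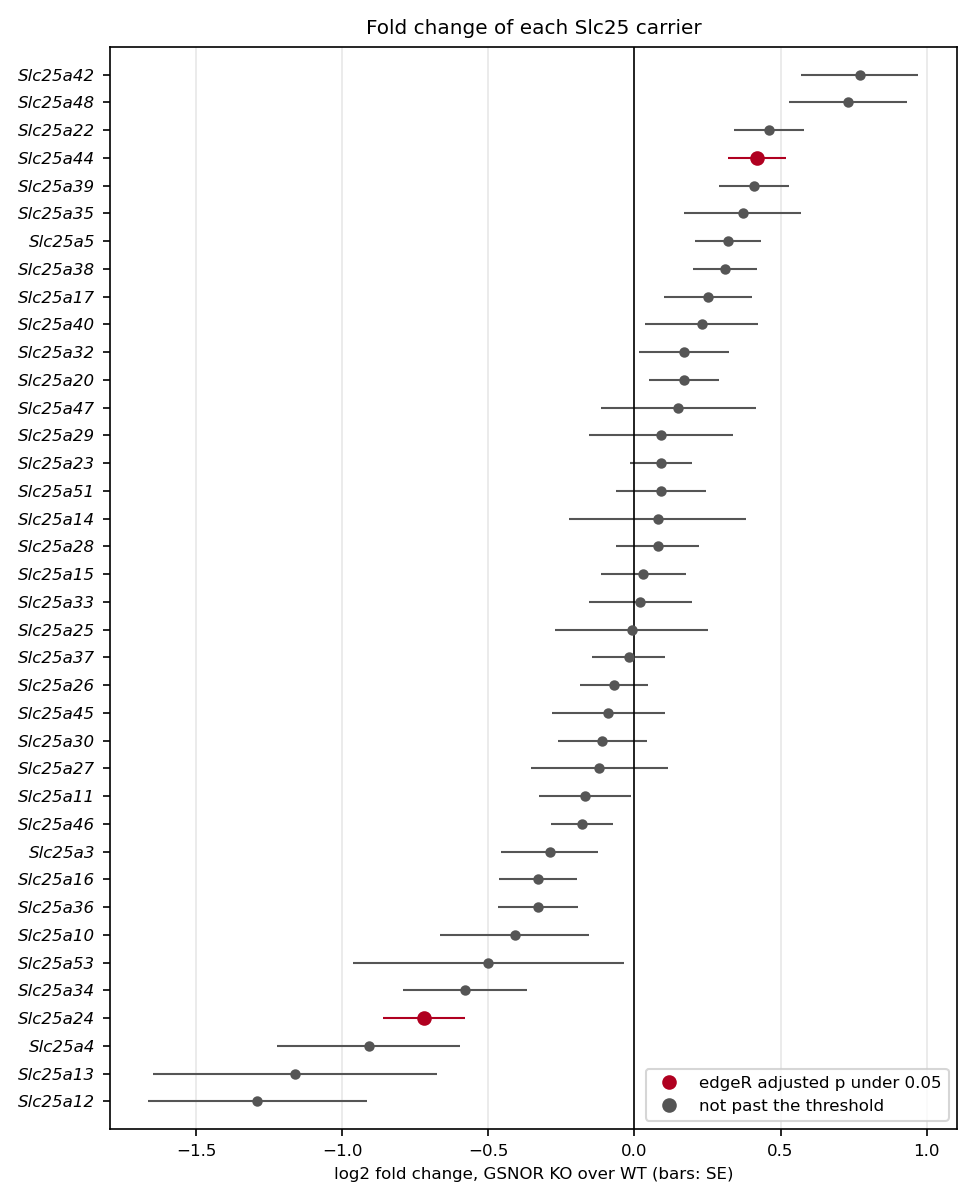
Log2 fold change of GSNOR KO over WT (x axis) for each of 38 carriers (y axis), with bars of 1 SE from edgeR and 3 libraries per group. The 2 red points, Slc25a24 and Slc25a44, passed an adjusted p of 0.05, and wider bars lie at Slc25a13 and Slc25a53, the 2 members with the lowest counts.

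Slc25a24 encodes a calcium-binding carrier that exchanges ATP-Mg for phosphate and so sets the adenine nucleotide pool of the matrix. Its gene lies on chromosome 3 (109123149 to 109168457, plus strand, GRCm38). Its level was 13.7, 11.4 and 13.3 CPM in WT against 8.36, 7.22 and 7.73 CPM in the knockout. Every knockout library lay below every WT library. WT averaged 12.8 ± 1.22 CPM and the knockout 7.77 ± 0.571 CPM (SD, n = 3 per genotype), a log2 fold change of -0.72 by edgeR (SE 0.141, adjusted p = 0.0332). Across the leave-outs that change stayed between -0.80 and -0.64, but the adjusted p passed only without WT replicate 1 and was 0.0651 to 0.157 without any other library. With the skeletal muscle score as a covariate it was -0.53 (adjusted p = 0.191), but that score separates the genotypes. The part of the macrophage and progenitor markers, which were also lower in GSNOR KO, was not tested.

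Slc25a44 encodes the carrier that brings branched-chain amino acids into mitochondria, known from mouse and human brown fat. It too lies on chromosome 3 (88410498 to 88425139, minus strand, GRCm38). WT replicates 1 to 3 held 36.6, 35.3 and 34.7 CPM and GSNOR KO replicates 1 to 3 held 45.4, 50.7 and 46.2 CPM. All WT libraries sat within a narrow band below the lowest knockout library. The rise was from 35.5 ± 0.948 to 47.4 ± 2.83 CPM (SD, n = 3 per genotype), a log2 fold change of 0.42 by edgeR (SE 0.0983, adjusted p = 0.0486). The fold change was 0.37 to 0.47 across the leave-outs. Among the leave-outs the call held only without WT replicate 1, and the adjusted p was 0.0696 to 0.202 without any other library. It was also lost with library totals only (adjusted p = 0.093), without a filter (0.0618), with limma voom (0.0566) and with the muscle covariate (0.168). Brown and beige adipocyte markers summed to 4130 to 5481 CPM in WT and 5685 to 7090 CPM in GSNOR KO. Of these 10 markers 3 rose, 1 fell and 6 did not pass, with 7 fold changes above 0 and 3 below. Their part in the Slc25a44 rise was not tested.

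**Figure D2:**
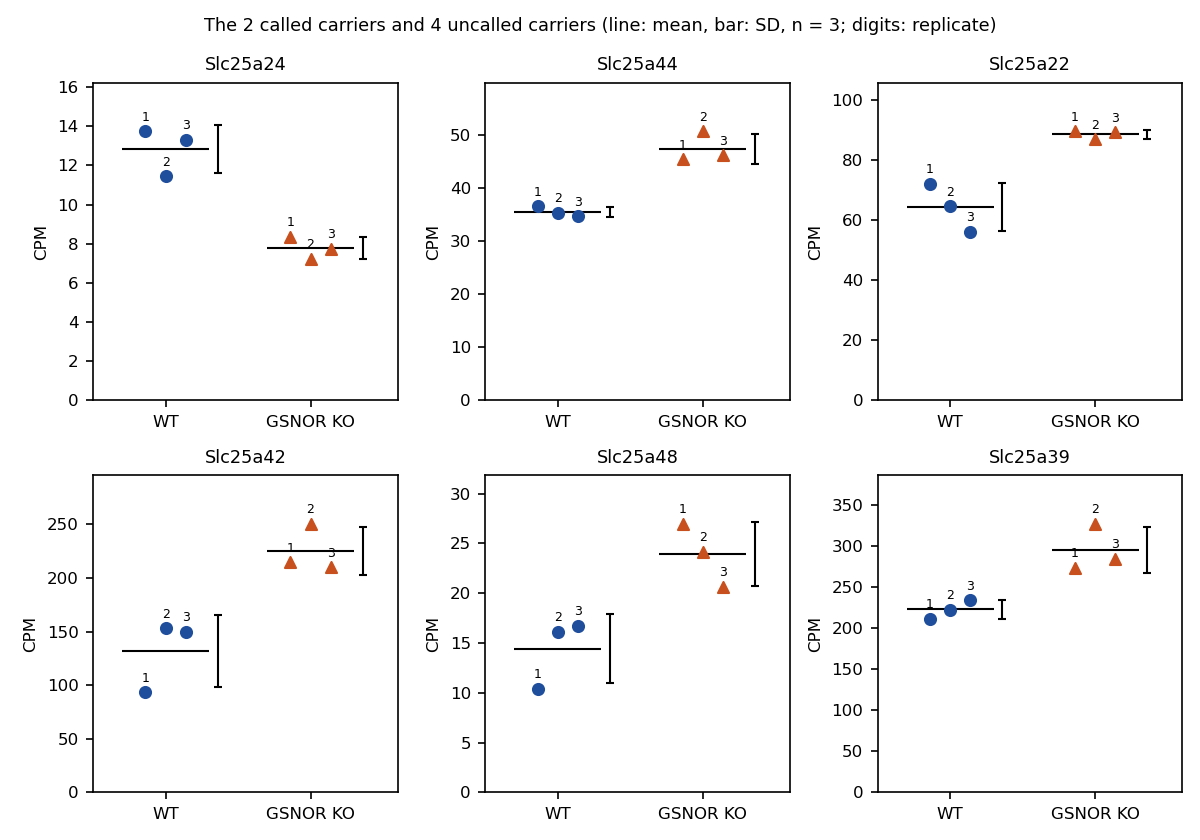
Level in CPM (y axis) of Slc25a24, Slc25a44 and 4 uncalled carriers in each library, by genotype, with digits for replicates, a line for the mean and a bar of 1 SD (n = 3). In all 6 panels the groups do not overlap, and for Slc25a42 and Slc25a48 WT replicate 1 lies lowest, at 93.3 and 10.4 CPM.

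Promoter windows were available for 30 of the 39 members, from RefSeq on GRCm38.p6, each running from 250 bases before to 50 bases after a gene start. The 4 printed here belong to the called Slc25a24, to Slc25a42, the member with the largest positive fold change, and to the translocases Slc25a4 and Slc25a5, whose fold changes had opposite signs. They lie at chr3:109122899-109123198 (plus strand), chr8:70212232-70212531 (minus), chr8:46211013-46211312 (minus) and chrX:36795347-36795646 (plus). Capitals mark any match, on either strand, to 6 motifs: the E-box CACGTG, the NRF1 motif, the ERR motif TCAAGGTCA, the NF-Y motif CCAAT, the SP1 motif GGGCGG and the TATA box TATAAA.
Slc25a24: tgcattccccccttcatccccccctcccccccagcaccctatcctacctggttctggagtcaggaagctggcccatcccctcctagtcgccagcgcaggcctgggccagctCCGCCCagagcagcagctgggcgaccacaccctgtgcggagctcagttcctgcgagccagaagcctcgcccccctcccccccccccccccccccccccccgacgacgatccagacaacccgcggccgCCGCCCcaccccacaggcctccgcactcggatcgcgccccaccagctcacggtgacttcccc
Slc25a42: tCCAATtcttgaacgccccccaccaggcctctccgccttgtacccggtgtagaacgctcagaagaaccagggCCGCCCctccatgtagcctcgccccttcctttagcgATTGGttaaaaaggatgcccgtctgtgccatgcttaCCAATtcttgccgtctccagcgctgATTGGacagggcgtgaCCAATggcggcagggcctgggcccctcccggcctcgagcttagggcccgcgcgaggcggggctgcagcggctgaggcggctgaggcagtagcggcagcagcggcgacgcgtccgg
Slc25a4: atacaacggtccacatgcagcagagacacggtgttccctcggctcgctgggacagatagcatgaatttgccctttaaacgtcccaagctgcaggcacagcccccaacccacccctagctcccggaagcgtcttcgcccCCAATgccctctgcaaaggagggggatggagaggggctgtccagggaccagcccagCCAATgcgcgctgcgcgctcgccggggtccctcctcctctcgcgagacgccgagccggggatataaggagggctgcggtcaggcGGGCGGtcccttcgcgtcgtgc
Slc25a5: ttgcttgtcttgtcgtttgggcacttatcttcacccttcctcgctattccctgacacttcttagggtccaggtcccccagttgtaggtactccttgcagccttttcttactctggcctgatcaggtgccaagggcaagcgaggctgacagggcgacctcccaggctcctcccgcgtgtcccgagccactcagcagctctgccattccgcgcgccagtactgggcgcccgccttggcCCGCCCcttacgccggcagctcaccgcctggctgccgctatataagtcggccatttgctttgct
The Slc25a42 window held 5 CCAAT matches and 1 GGGCGG match, and the Slc25a4 window held 2 CCAAT matches and 1 GGGCGG match. Only GGGCGG was found in the windows of Slc25a24 (2 matches) and Slc25a5 (1 match). Across the members GGGCGG was present in 27 of 30 and CCAAT in 17 of 30, against 38.2% and 41.1% of the 27025 genes with a window. The E-box was in 5 of 30 (8.09% of all genes), and the NRF1, ERR and TATA motifs were in 0 of 30 (1.07, 0.466 and 15.7% of all genes). Member windows were richer in G and C, with a median of 59.7% against 52.7% over all windows, and a GC-rich motif is met more often in such sequence. Only exact letters were matched, so near variants of a motif were not counted. The Slc25a5 window, set by a RefSeq start, ends at 36795646, before that gene's start in GENCODE M21 (36795651). On the minus strand, Slc25a4 starts at 46211284 in GENCODE M21. Most of its window, with both CCAAT matches, therefore lies within that annotated gene rather than before it. These letter matches are descriptions of the windows and show no binding.

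The translocases that exchange cytosolic ADP for matrix ATP had fold changes of opposite sign. Slc25a4 encodes the isoform typical of muscle and heart, Slc25a5 the isoform found in most tissues. Slc25a4 was at 1931, 947.9 and 857.6 CPM in WT against 699.6, 564.5 and 720.4 CPM in the knockout. The knockout libraries were all lower, and WT replicate 1 held more than any other library, as it did for the muscle and macrophage markers. The log2 fold change was -0.91 (SE 0.312, edgeR adjusted p = 0.109), and -0.42 without WT replicate 1 (adjusted p = 0.0395). Slc25a5 was at 169.8, 152.7 and 169.3 CPM in WT against 192.0, 218.6 and 202.4 CPM in the knockout, in replicate order. Here the knockout libraries were all higher, by a log2 fold change of 0.32 (SE 0.112, adjusted p = 0.115).

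Per length, the ratio of Slc25a4 to Slc25a5 FPKM (fragments scaled to transcript length and library size) was 5.95, 3.26 and 2.64 in WT against 1.93, 1.36 and 1.88 in the knockout. Slc25a4 was the more abundant in all 6 libraries, and the groups did not overlap. The mean ratio was 3.95 ± 1.76 in WT and 1.72 ± 0.313 in GSNOR KO (SD, n = 3 each), a difference of -1.12 on the log2 scale. A two-sided exact permutation test gave p = 0.10, the smallest it can give for 3 against 3 samples. Without WT replicate 1 the difference was -0.78. The muscle and macrophage markers were also highest in WT replicate 1 and lower in the knockout, and their part in the ratio was not tested.

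**Figure D3:**
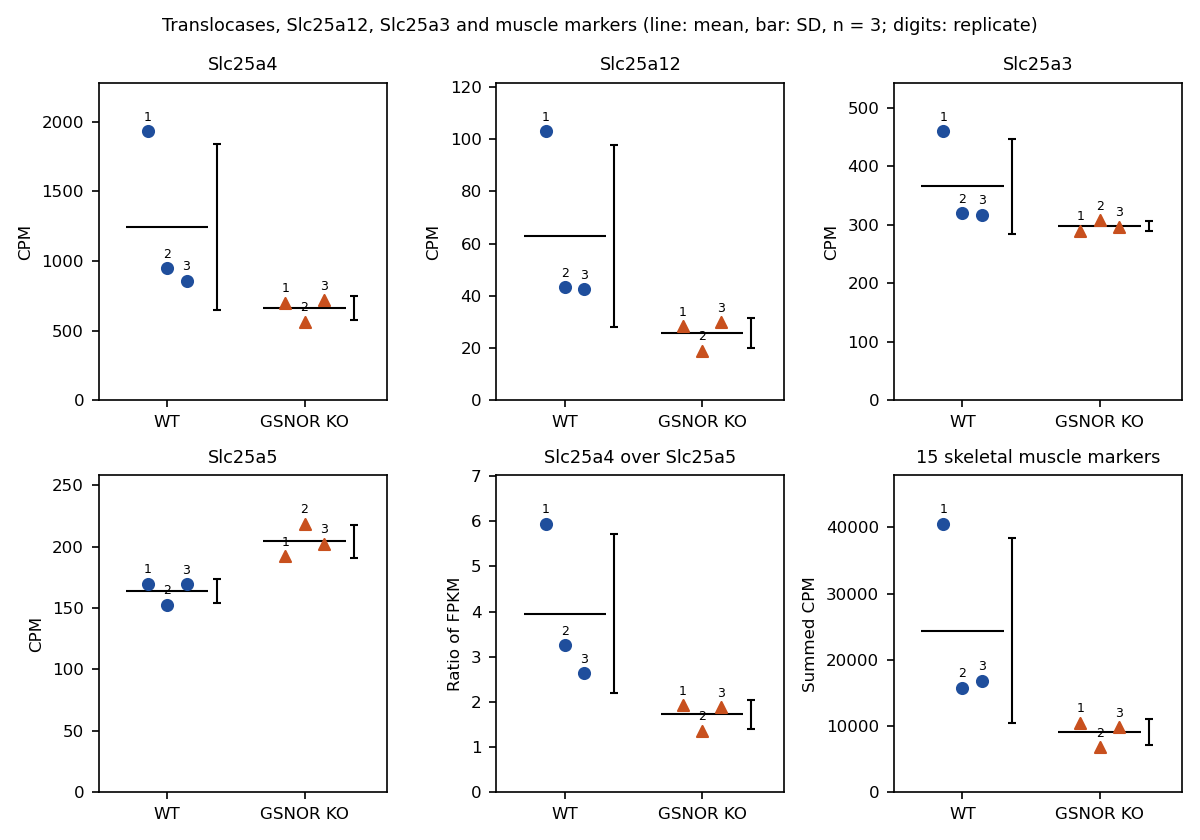
Levels in CPM (y axis) of Slc25a4, Slc25a12, Slc25a3 and Slc25a5, the ratio of Slc25a4 to Slc25a5 FPKM, and the summed CPM of 15 skeletal muscle markers, in each library, with the mean, SD and n = 3 per genotype. WT replicate 1 is the highest point in every panel but that of Slc25a5, where the knockout points lie above WT, and in the other 5 panels the knockout points lie below WT.

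Of the 6 members that carry adenine nucleotides or phosphate, 0 rose and 1 fell, with a median log2 fold change of -0.15. Slc25a3, the phosphate carrier needed for ATP synthesis, was at 459.4, 319.2 and 317.1 CPM in WT against 289.6, 307.3 and 296.7 CPM in the knockout. The knockout libraries were all lower, but WT replicates 2 and 3 lay close to them (edgeR: log2 fold change -0.29, SE 0.167, adjusted p = 0.286, and -0.06 without WT replicate 1). The other 2 ATP-Mg/phosphate carriers did not pass the test. Slc25a23 was at 59.6 to 63.8 CPM in WT and 60.2 to 71.0 CPM in GSNOR KO. Slc25a25 was at 14.7, 18.5 and 9.10 CPM in WT against 11.6, 16.6 and 13.8 CPM in the knockout, with overlapping groups (log2 fold change -0.01, SE 0.262, adjusted p = 0.989). Whether their fold changes differ from that of Slc25a24 was not tested.

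Amino acid carriers were mixed: of 7 members 1 rose, 0 fell and 6 did not pass, with log2 fold changes from -1.29 to 0.46. Slc25a12 and Slc25a13 encode the aspartate/glutamate exchangers of the malate-aspartate shuttle, the first typical of muscle and brain, the second of liver. Slc25a12 was at 103.0, 43.2 and 42.5 CPM in WT against 28.3, 18.9 and 29.9 CPM in the knockout. Every knockout library was lower, and WT replicate 1 was again far above the rest (edgeR: log2 fold change -1.29, SE 0.373, adjusted p = 0.0769, and -0.71 with adjusted p = 0.0373 without that library). Slc25a13 was scarce, with 5 to 28 counts a library, or 1.23, 0.643 and 0.961 CPM in WT against 0.495, 0.224 and 0.539 CPM in the knockout. Its groups did not overlap, and its fold change was -1.16 (SE 0.486, adjusted p = 0.167).

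Slc25a22, a glutamate carrier, was at 72.1, 64.5 and 56.0 CPM in WT against 89.4, 86.7 and 89.1 CPM in the knockout. All knockout libraries were higher, and the spread among them was small (edgeR: log2 fold change 0.46, SE 0.119, adjusted p = 0.0596). By FPKM its groups overlapped, since WT replicate 1 stood at 44.9 FPKM beside 17.9 and 17.6 in WT replicates 2 and 3 and 23.4 to 27.2 in GSNOR KO. Slc25a38 brings in glycine for heme synthesis. It was at 18.0, 18.9 and 18.6 CPM in WT against 21.0, 24.4 and 23.6 CPM in the knockout, again without overlap (log2 fold change 0.31, SE 0.108, adjusted p = 0.109). The ornithine carrier Slc25a15 and the basic amino acid carrier Slc25a29 overlapped between genotypes, with log2 fold changes of 0.03 and 0.09.

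Carriers of cofactors and other nucleotides numbered 9, and 0 of them passed in either direction (median log2 fold change 0.09). Slc25a42, which brings coenzyme A into the matrix, had the largest positive fold change among the members. It was at 93.3, 153.0 and 149.9 CPM in WT against 214.6, 250.7 and 209.9 CPM in the knockout, with every knockout library higher. The log2 fold change was 0.77 (SE 0.202, edgeR adjusted p = 0.0616), and 0.60 without WT replicate 1 (adjusted p = 0.00492).

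In the same group Slc25a16, a carrier linked to coenzyme A, and Slc25a36, a pyrimidine nucleotide carrier, had log2 fold changes of -0.33 each, with no overlap between genotypes and adjusted p of 0.153 and 0.170. The peroxisomal carrier Slc25a17, the folate and FAD carrier Slc25a32, the S-adenosylmethionine carrier Slc25a26, the NAD carrier Slc25a51 and the pyrimidine carrier Slc25a33 overlapped between genotypes, with log2 fold changes between -0.07 and 0.25.

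The 3 members that carry carboxylates or acylcarnitine showed no call, and Slc25a1, which is not a member, is not covered by this statement. Slc25a20 imports acylcarnitines for fatty acid oxidation and was at 236.5, 234.9 and 260.4 CPM in WT against 263.9, 303.3 and 253.4 CPM in the knockout. The groups overlapped (edgeR: log2 fold change 0.17, SE 0.120, adjusted p = 0.406). Slc25a10, the dicarboxylate carrier, was at 38.7, 36.5 and 24.5 CPM in WT against 28.3, 16.9 and 29.6 CPM in the knockout, also with overlap (log2 fold change -0.41, SE 0.255, adjusted p = 0.329). Slc25a11, the oxoglutarate/malate carrier, was at 138.8, 93.9 and 105.7 CPM in WT against 96.5, 102.3 and 101.4 CPM in the knockout. Apart from a high WT replicate 1 its libraries lay together, and its fold change went from -0.17 (SE 0.157, adjusted p = 0.508) to 0.03 without that library.

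Among 4 carriers of iron and glutathione, 0 passed. Slc25a39, which imports glutathione, was at 211.8, 222.9 and 234.3 CPM in WT against 274.1, 327.6 and 285.1 CPM in the knockout. The groups were apart, with a log2 fold change of 0.41 by edgeR (SE 0.119, adjusted p = 0.0773). Its relative Slc25a40 overlapped, at 4.42 to 6.48 CPM in WT and 6.25 to 6.51 CPM in GSNOR KO, as did the iron carriers Slc25a28 and Slc25a37, with log2 fold changes of 0.08 and -0.02. The uncoupling protein-like members Slc25a14, Slc25a27 and Slc25a30 lay between -0.12 and 0.08. Slc25a46, which acts at the outer membrane in fusion and fission, was lower in all 3 knockout libraries by a small margin (log2 fold change -0.18, adjusted p = 0.313).

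The remaining 6 members were on none of these role lists, and 0 passed. Slc25a48, described as a choline carrier, was at 10.4, 16.1 and 16.7 CPM in WT against 27.0, 24.2 and 20.6 CPM in the knockout. Each knockout library was higher (edgeR: log2 fold change 0.73, SE 0.201, adjusted p = 0.0681). Slc25a34 was at 21.1 to 23.3 CPM in WT and 10.1 to 18.1 CPM in GSNOR KO, without overlap (log2 fold change -0.58, adjusted p = 0.126). Slc25a35, whose exons overlap those of Rangrf on the other strand over 31.3% of their length, had a log2 fold change of 0.37, and if counting ignored strand, reads from that overlap cannot be assigned to either gene. Slc25a45, Slc25a47 and Slc25a53 overlapped between genotypes. Over 22 of the members whose 3 values per group are not listed, log2 fold changes ran from -0.58 to 0.37 and adjusted p from 0.126 to 0.945.

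**Figure D4:**
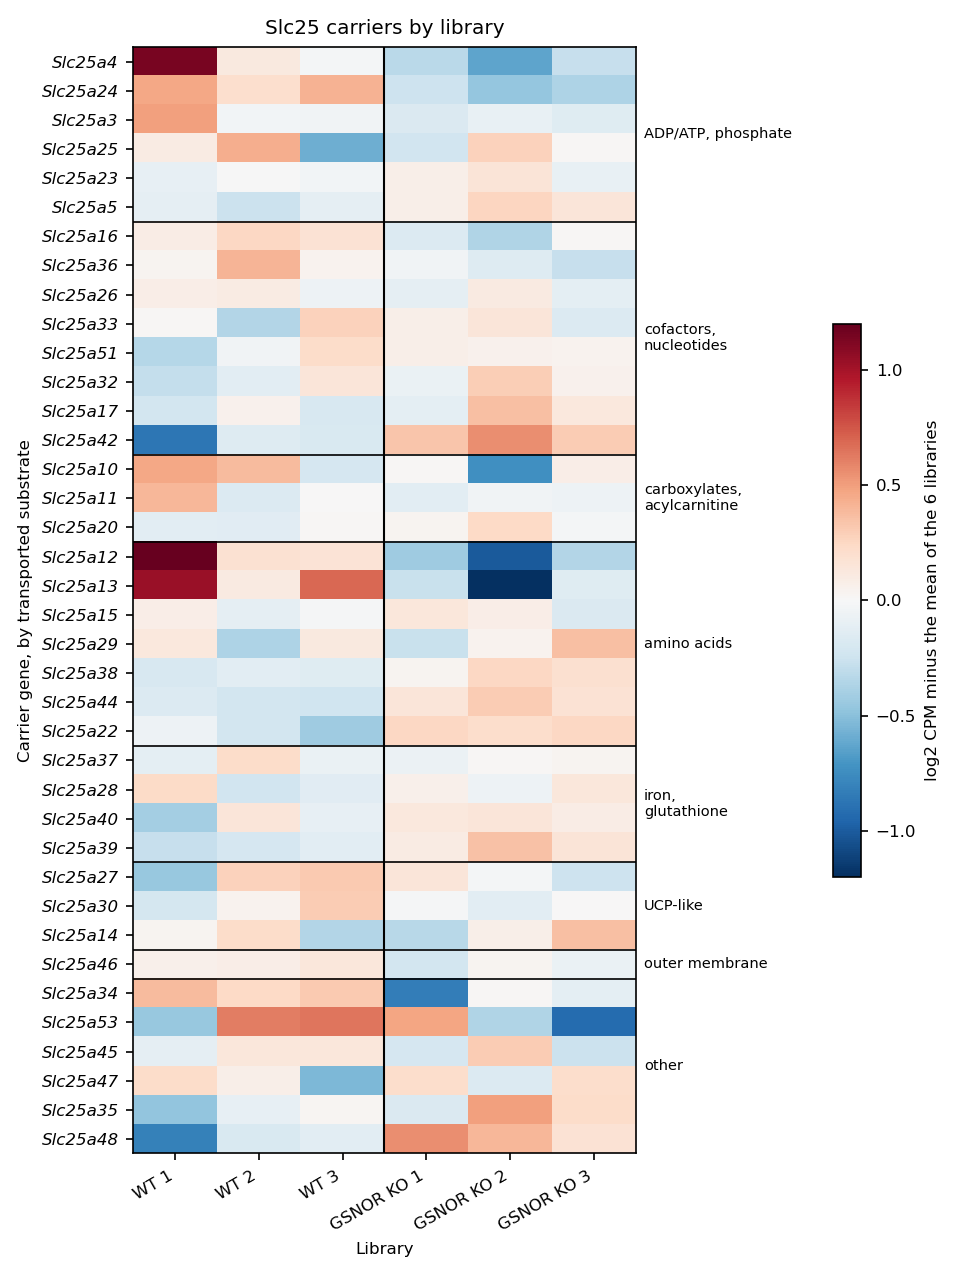
Log2 CPM of each carrier minus its mean over the 6 libraries (colour), by library (x axis) and by carrier, grouped by substrate (y axis), with a line between genotypes. The plot shows 38 carriers, and WT replicate 1 holds the highest value of Slc25a4, Slc25a12 and Slc25a13 and the lowest of Slc25a42 and Slc25a48.

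Carriers covered a wide range of levels when compared per length by FPKM. Slc25a4 had the highest mean over the 6 libraries, 469.1 FPKM, followed by Slc25a3 with 240.9, Slc25a20 with 185.3, Slc25a5 with 168.7 and Slc25a39 with 130.9. In single libraries neighbours in this order overlapped: Slc25a20 ranged from 157.6 to 212.3 FPKM and Slc25a5 from 129.5 to 192.0 FPKM. Slc25a13, at 0.0736 to 0.865 FPKM, was the lowest. The share of Slc25a4 in the summed FPKM of the 39 members was 43.2, 28.9 and 26.3% in WT against 21.8, 16.5 and 21.9% in the knockout. The sum of the other 38 was 1037 to 1351 FPKM in WT and 1177 to 1326 FPKM in GSNOR KO, so that these ranges overlapped.

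**Figure D5:**
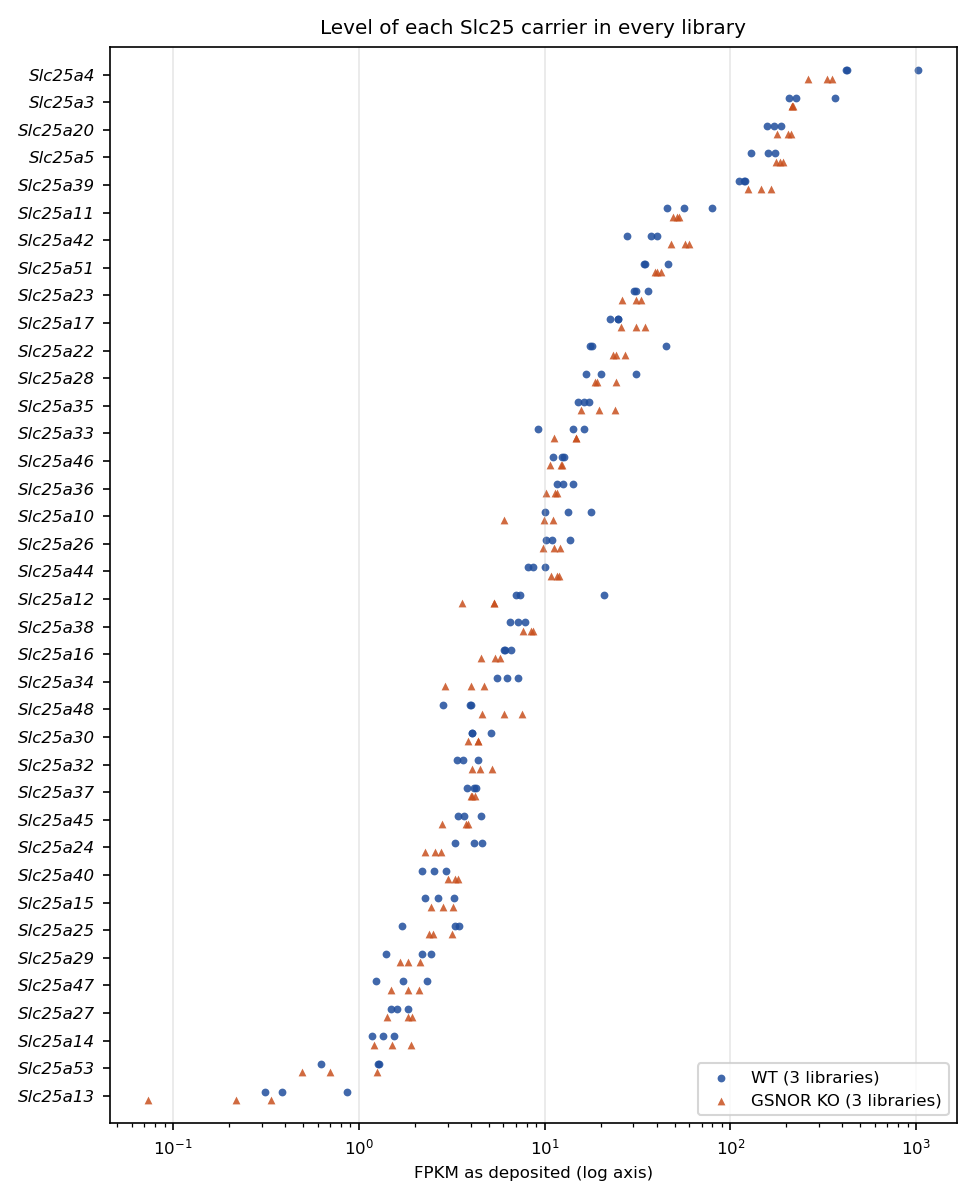
FPKM as deposited (x axis, log scale) of each of 38 carriers (y axis) in the 3 WT libraries (blue circles) and the 3 GSNOR KO libraries (orange triangles). Levels run from 0.0736 FPKM for Slc25a13 to 1028 FPKM for Slc25a4 in WT replicate 1.

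Among family members with other names, 2 of 5 rose and 0 fell. Over all tested genes 3.9% rose and 3.14% fell, the background also for the gene lists that follow. Ucp3, an uncoupling protein typical of muscle and brown fat, was at 88.6, 86.3 and 68.2 CPM in WT against 123.4, 185.1 and 154.7 CPM in the knockout (edgeR: log2 fold change 0.93, SE 0.179, adjusted p = 0.0321). Its knockout libraries were higher, while the muscle marker sum was lower and the brown and beige marker sum higher in the knockout. The part of either in the Ucp3 rise was not tested. Mtch1, an outer membrane insertase, went from 205.2 ± 12.0 CPM up to 293.3 ± 10.1 CPM (SD, n = 3 per genotype), by 0.51 on the log2 scale (edgeR adjusted p = 0.0380). The brown fat protein Ucp1 was at 564.0, 1194 and 1535 CPM in WT against 1227, 2113 and 1434 CPM in the knockout, with overlap (adjusted p = 0.380). For Ucp2 the fold change was -0.19 on the log2 scale (adjusted p = 0.322).

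Of 24 other mitochondrial membrane transporters 2 rose and 1 fell, with a median log2 fold change of 0.01. Mpc2, a subunit of the pyruvate carrier, was at 296.0, 264.1 and 251.9 CPM in WT against 384.2, 452.7 and 406.0 CPM in the knockout (log2 fold change 0.61, adjusted p = 0.0357). Its partner subunit Mpc1 was also higher in every knockout library without passing (0.51, adjusted p = 0.0879). Letm1, an inner membrane ion exchanger, rose by 0.62 on the log2 scale (adjusted p = 0.0495). Nnt, the proton-driven transhydrogenase that makes NADPH, fell from 113.2, 62.6 and 42.5 CPM in WT replicates 1 to 3 to 25.9, 20.1 and 29.2 CPM in the knockout (log2 fold change -1.54, adjusted p = 0.0453). WT replicate 1 was the highest for Nnt as for the muscle and macrophage markers, whose part was not tested. C57BL/6J mice are known to carry a deletion within Nnt, and its single exons were not analysed here.

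Proteins of this family reach the inner membrane through a dedicated import route, and 2 of its 16 genes rose and 0 fell (median 0.15). These were Timm10b (log2 fold change 0.59, adjusted p = 0.0270) and Timm13 (0.50, adjusted p = 0.0447), which encode small chaperones of the intermembrane space. Of 12 enzymes of the shuttles that carriers serve 2 rose and 0 fell (median 0.18). Acly, which splits exported citrate, was at 96.2 to 121.8 CPM in WT and 223.9 to 386.0 CPM in the knockout (log2 fold change 1.53, adjusted p = 0.0189). Pcx, pyruvate carboxylase, went from 226.8 ± 8.49 CPM up to 376.7 ± 15.3 CPM (SD, n = 3 per genotype), by 0.73 on the log2 scale (edgeR adjusted p = 0.0189). Of 5 carnitine acyltransferases 0 passed (median 0.27). These 9 called genes kept their call in at most 2 of the 6 leave-outs. Letm1 was also not called with library totals only (adjusted p = 0.0690), without a filter (0.0507) or with limma voom (0.0551). Mtch1 was not called with library totals only (0.0904), Timm13 with library totals only (0.102) or without a filter (0.0509), and Nnt without a filter (0.0643) or with limma voom (0.0551).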

How the data were processed

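RNA was measured in 3 WT and 3 GSNOR KO samples. The authors deposited whole-number read counts per gene and FPKM, per the file headers, with a DESeq comparison giving log2 fold changes and adjusted p-values. The genome build was GRCm38 (mm10), per the submitters' processing notes. No source used here gives the aligner, counter or strand setting, so near-identical copies and overlapping genes may share counts. A count of 3 was 0.125 to 0.148 CPM. Counts were tested with edgeR 4.0.16 (R 4.3.3): filterByExpr, which kept 13694 genes and all 39 members, TMM factors of 0.930 to 1.08, and its quasi-likelihood test (glmQLFit with robust estimation). P-values were Benjamini-Hochberg adjusted over all tested genes and called under 0.05. CPM values use TMM-scaled library sizes, and each SE was obtained from the log2 fold change and its F statistic. The script was tested on simulated data. Alternatives used RLE factors, library totals, other filters, DESeq2 1.42.0, limma 3.58.1 (voom, and log2(FPKM + 1)), a replicate block, a skeletal muscle score as covariate, no mitochondrially encoded rows, and each library left out. The authors' deposited DESeq adjusted p was added after seeing the data. The members and gene lists were chosen with earlier results of these data known. Values per library are given for called members, the 8 uncalled with the smallest p, the 6 with the highest mean FPKM, 10 listed carriers, and called genes of the other lists with Ucp1 to Ucp3 and both Mpc genes. Other members given per library or by range, and the genes of the promoter set, were chosen after their values were seen. The values of 1 member are not reported here or plotted, though counts and medians over the 39 include it. Gene coordinates are those of GENCODE M21 on GRCm38.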

Additional observations from a re-analysis of the deposited data

How the results depend on the processing

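The Slc25a24 fall and Slc25a44 rise kept their direction under the scalings, filters, tools, block, muscle covariate and leave-outs. Their values with FPKM or without mitochondrially encoded rows were not tabulated. The log2 difference in the Slc25a4 to Slc25a5 ratio was -1.14 with counts and -1.37 to -0.78 across the leave-outs. The number of called members was 2, and 1 with library totals only, without a filter or with limma voom (Slc25a24 each time), 9 with DESeq2, 0 with limma on log2(FPKM + 1), with the muscle covariate or in the authors' deposited table, and 0 to 9 across the leave-outs. Of all genes 5.26% were called with library totals only, 4.5% without a filter and 1.34% with limma on log2(FPKM + 1). The count over all genes was 964, 2344 with DESeq2 and 3 to 2844 across the leave-outs. A call of any single carrier therefore rests on which libraries are kept, and the cause was not tested. Slc25a25, at -0.01, changed sign to 0.01 with RLE factors or DESeq2, 0.04 with limma voom, 0.03 with the block, and 0.06, 0.24, 0.11 and 0.01 without WT replicate 1 or 2 or GSNOR KO replicate 1 or 3. Across the leave-outs it ran from -0.21 to 0.24. Slc25a11 changed sign to 0.03 without WT replicate 1 and ran from -0.29 to 0.03. Of 39 members 26 kept 1 sign in all 6 leave-outs.

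The replicate numbers gave no clear pairing of the samples: same-numbered deviations correlated at 0.159, 0.137 and -0.0589 across genes. WT replicates 1 and 2 each correlated best with the knockout library of the same number, but WT replicate 3 correlated best with GSNOR KO replicate 2 (0.191). Correlations this weak, from 3 samples a group, cannot show whether the samples were paired. With the replicate block 884 genes (6.46%) were called. So were 3 of the 39 members, Slc25a12, Slc25a24 and Slc25a42, while Slc25a44 was not (adjusted p = 0.0969). Letm1, Mpc2, Mtch1 and Timm13 were not called with it either (adjusted p 0.0633 to 0.0839).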

Other observations

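Both called carriers lie on chromosome 3, the chromosome of Adh5, and they are the 2 members found there. Slc25a24 starts 29.3 Mb and Slc25a44 50 Mb from the start of Adh5. Of the genes tested within 30 Mb of Adh5 19 of 168 were called (11.3%), within 51 Mb 37 of 431 (8.58%), on the whole of chromosome 3 51 of 631 (8.08%), and on the other chromosomes 7.05%. Over the single autosomes and the X chromosome the share called ran from 4.63% on chromosome 13 to 9.03% on chromosome 17. The share for the whole of chromosome 3 lay within that range. The flanking strain of the knockout allele was not examined here.

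WT replicate 1 was the highest library for 10 members and the lowest for 14, and GSNOR KO replicate 2 was the highest for 14 and the lowest for 6. The summed muscle markers had their maximum and their minimum in the same 2 libraries, at 40552 and 6808 CPM. So did the macrophage markers, at 592.9 and 128.4 CPM. The endothelial markers (1229 and 2754 CPM) and the brown and beige markers (4130 and 7090 CPM) had their minimum and their maximum there. The adipocyte, lymphocyte and progenitor sums did not have both extremes in these libraries. How often these libraries were the extreme over all genes was not counted, and the part of any of these markers in this pattern was not tested.

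The deposited FPKM of Slc25a22 did not follow its counts in WT replicate 1. There its FPKM per count, scaled to the library's median gene, was 1.89 times its median over the 6 libraries, against 0.893 to 1.06 in the other 5. It was the 1 member of 38 with at least 10 counts in each library for which this value varied over 2-fold, as it did for 1.22% of 12672 genes. By counts its log2 fold change was 0.46, while by FPKM the means were 26.8 ± 15.7 in WT and 24.9 ± 2.04 in GSNOR KO (SD, n = 3 each).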
